A study of Homo sapiens with 4 samples.

Results

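The genes examined here carry glucose into the cell and commit it to glycolysis. They are the glucose transporter genes SLC2A1 and SLC2A3, the hexokinase genes HK1 and HK2, the phosphofructokinase-1 (PFK-1) subunit genes PFKL, PFKM and PFKP, and PFKFB2, PFKFB3 and PFKFB4, which encode enzymes that set the level of the PFK-1 activator. They were chosen by name, with earlier results of these data known. The genes make up 10 of the 23228 gene symbols counted, and all 10 were among the 12706 genes with enough counts to be tested. RNA came from ES2, an established human ovarian cancer cell line, cultured for 12 h in the presence of 10 nM EC359 or of its vehicle, 0.1% DMSO. EC359 is a small molecule inhibitor of LIFR, the receptor of the cytokine leukemia inhibitory factor. There were 2 libraries for each treatment, which the study describes as biologically independent samples, and p-values measure only the spread between these samples. In the edgeR test the spread of each gene was estimated in part from that of other genes. The values therefore describe 1 cell line at 1 dose and 1 time.

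Glucose crosses the plasma membrane through facilitative transporters of the SLC2A (GLUT) family and is trapped inside the cell when a hexokinase phosphorylates it to glucose 6-phosphate. After isomerization to fructose 6-phosphate, PFK-1 adds a further phosphate in the first step that is committed to glycolysis. PFKFB enzymes both make and break down fructose 2,6-bisphosphate, a potent activator of PFK-1, and the balance of these activities differs between isoforms. Many of these genes are known targets of hypoxia-inducible factors and of MYC, and tumor cells commonly express SLC2A1, HK2 and PFKFB3 at high levels.

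Reads counted on genes numbered from 25572494 to 31707553 per library. Libraries of the same treatment varied beyond counting error, with a biological coefficient of variation of 3.5%. Keratin genes KRT7, KRT8 and KRT18 were expressed (618 to 8120 normalized counts), as was the mesenchymal gene VIM (135000 to 158000), whereas the epithelial and ovarian carcinoma genes EPCAM, CDH1 and MUC16 were at or near 0 (at most 2.22). KRT19 (5.56 to 21.5), PAX8 (26.7 to 38.3) and WT1 (84.5 to 117) were detected at low counts. Of 6 genes fixed as markers of other cell types, PTPRC, CD3E, PECAM1 and HBB were at or near 0 (at most 1.87), while CD68 (2530 to 2720) and CDH5 (3470 to 3700) were not. Normalized counts are counts scaled with TMM factors to the mean library size. They compare a gene between libraries, and levels between genes are given as RPKM (reads per kilobase of exon, scaled to sequencing depth).

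In vehicle-treated cells the mean level was highest for PFKP at 67.5 RPKM, followed by HK1 at 58.7, HK2 at 55.1 and SLC2A1 at 44.2. The libraries of these 4 genes did not overlap with those of their neighbors in the order. PFKM (21.1 and 22.2 RPKM) and PFKFB3 (19.8 and 21.3) came next, and their vehicle libraries overlapped. PFKL had 10.2 RPKM, PFKFB4 4.17, SLC2A3 2.75 and PFKFB2 0.56. Among tested genes with a known length, PFKP stood at percentile 95.1 and PFKFB2 at percentile 14. The place of HK2 depended on the gene model, since SLC2A1 (86.4 RPKM) ranked above HK2 (58) when only the longest transcript of each gene gave the length. The other 8 genes kept their rank. With EC359 the mean levels ran from 63.5 RPKM for PFKP to 0.709 for PFKFB2 in the same order, except that PFKFB4 (2.37 and 2.55) came after SLC2A3 (2.62 and 2.58).

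**Figure D1:**
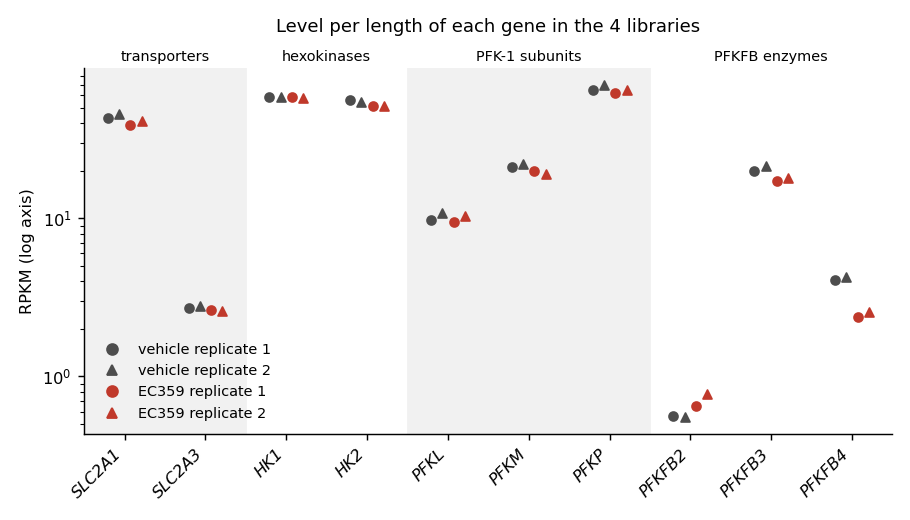
RPKM (log axis) of the 10 genes in each of the 4 libraries, grouped by role, with vehicle in gray and EC359 in red and 1 symbol per replicate number. PFKP was highest and PFKFB2 lowest under both treatments, and PFKFB4 fell from a vehicle mean of 4.17 to 2.46.

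The comparison asked how the RNA levels of these genes differed between cells given the LIFR inhibitor and cells given vehicle. PFKFB4 fell, PFKFB3 was lower at a weaker threshold, and the other 8 genes did not pass either threshold in the main edgeR test. By the quasi-likelihood test of edgeR, adjusted over all tested genes (Benjamini-Hochberg), 1 of the 10 genes was called lower at an adjusted p under 0.01, where 0.795% of all tested genes were called lower. At this threshold 0 of the 10 genes were called higher, against 0.299% of all tested genes. DESeq2 and limma voom also called 0 higher, and 1 (PFKFB2) was higher at an unadjusted p under 0.05, as were 10.7% of all tested genes. At an adjusted p under 0.05, 2 were lower and 0 higher, against 2.64% and 1.68% of all tested genes. In simulated counts, this test called 41.5% of genes changed by an absolute log2 fold of 0.3 at an adjusted p under 0.01. A gene that did not pass may therefore still have changed.

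The log2 fold change was negative for 9 of the 10 genes and positive for PFKFB2, although that of HK1 was 0.00082 when libraries were scaled by total counts only and that of PFKL turned with the library left out. In 8 genes both EC359 libraries lay below both vehicle libraries, which held for 25.4% of all tested genes. In 1 gene, PFKFB2, both lay above, against 26.1% of all tested genes, and only the libraries of PFKL overlapped. At an unadjusted p under 0.05, 6 genes were lower, against 11.0% of all tested genes. The median log2 fold change of the 10 genes was -0.095, and the median over all tested genes was 0.0029. In whole cultures, fewer cells of a kind that expresses a gene and less RNA per cell cannot be told apart.

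**Figure D2:**
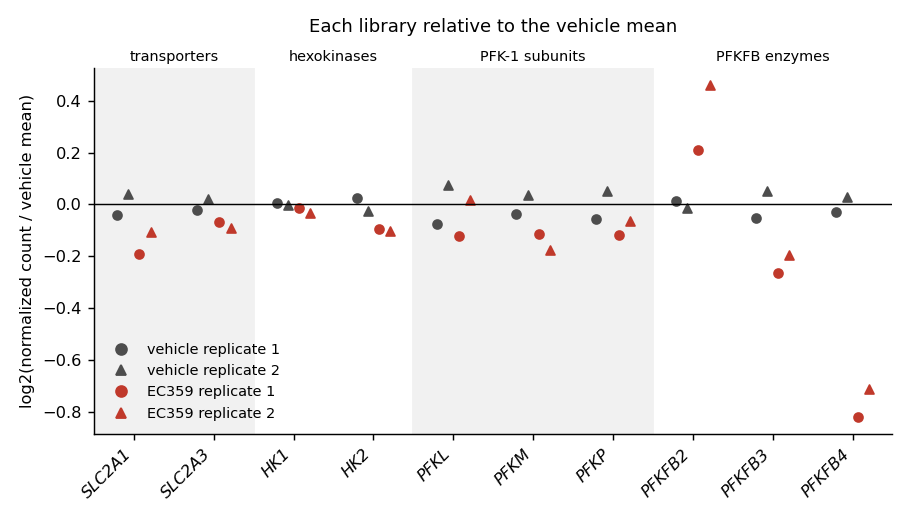
Normalized count of each gene in each library relative to the vehicle mean of that gene (log2 axis), by role, with vehicle in gray and EC359 in red. The EC359 libraries of PFKFB4 lie farthest below the line at 0, those of PFKFB2 lie above it, and those of HK1 lie close to it.

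SLC2A1 encodes GLUT1, the transporter that supplies basal glucose uptake in many cell types. It lies on the minus strand at chr1:43391024-43424564 of GRCh37. Its normalized counts were 8013 and 8476 with vehicle (replicates 1 and 2, in this order throughout) against 7218 and 7665 with EC359. Both EC359 libraries were below both vehicle libraries, with means of 8244 ± 327 and 7442 ± 316 (SD, n = 2 each). The fitted log2 fold change was -0.15 (standard error 0.041, 95% interval -0.24 to -0.057) and the adjusted p of 0.0718 missed both thresholds. When 1 library was left out, the log2 fold change ranged from -0.19 to -0.11. An unnamed gene on the opposite strand shares 13.4% of the 50-base windows of the longest SLC2A1 transcript. For every gene, windows were taken from its longest transcript only. The strand setting of the counting is not given in the sources used here.

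SLC2A3 encodes GLUT3, a transporter with high affinity for glucose that is best known from neurons. This gene (minus strand, chr12:8071826-8171603) had 553.5 and 570.8 normalized counts with vehicle against 536 and 527.6 with EC359. The groups did not overlap, but the log2 fold change of -0.08 had a standard error of 0.072 and an adjusted p of 0.568. SLC2A3 shares 20.3% of its windows with SLC2A14, a close paralog that had 0 or 1 counts in each library.

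HK1 encodes the widely expressed hexokinase that is bound to mitochondria. HK1 (plus strand, chr10:71029740-71161640) was the least changed of the 10 genes, with 11420 and 11360 normalized counts with vehicle and 11280 and 11130 with EC359. The EC359 libraries were lower by a narrow margin. Its log2 fold change was -0.023 with a 95% interval from -0.091 to 0.045 (adjusted p = 0.711).

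HK2 encodes the inducible hexokinase that is abundant in insulin-sensitive tissue and in many tumors. HK2 (plus strand, chr2:75061254-75120486) had 9372 and 9036 normalized counts with vehicle and 8610 and 8570 with EC359. The groups did not overlap, with means of 9204 ± 237 and 8590 ± 28.4 (SD, n = 2 each). Its fold change of -0.10 (log2, standard error 0.033) did not pass at an adjusted p of 0.116. The processed pseudogene HK2P1 shares 8.8% of the HK2 windows.

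PFKM encodes the muscle-type subunit of PFK-1. PFKM (plus strand, chr12:48498922-48540187) had 4317 and 4540 normalized counts with vehicle and 4097 and 3922 with EC359, and the groups did not overlap. Its log2 fold change was -0.14 (standard error 0.042, adjusted p = 0.0786), and 516 bases of its exons overlap SENP1 on the opposite strand.

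PFKP, the platelet-type subunit, is the main PFK-1 gene by RNA level in these cells. PFKP (plus strand, chr10:3108525-3179910) had 14260 and 15370 normalized counts with vehicle and 13660 and 14180 with EC359. The higher EC359 library lay just under the lower vehicle library. Its log2 fold change of -0.09 (standard error 0.04) had an adjusted p of 0.224.

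PFKL, the liver-type subunit, was the gene whose groups overlapped. PFKL (plus strand, chr21:45719934-45747259) had 2446 and 2714 normalized counts with vehicle and 2369 and 2614 with EC359, so that 1 EC359 library lay between the vehicle libraries. The fitted difference was -0.051 on the log2 scale, with a 95% interval from -0.19 to 0.086 (adjusted p = 0.682). Its direction depended on 1 library, since the log2 fold change was 0.02 without vehicle replicate 2 and 0.018 without EC359 replicate 1. With length and GC trends removed it was -0.14 (adjusted p = 0.011).

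PFKFB4, an isoform that is induced by hypoxia in many cell types, showed the largest change of the 10 genes. PFKFB4 (minus strand, chr3:48555117-48599448) had 704.6 and 733.3 normalized counts with vehicle and 407.7 and 439.8 with EC359. The highest EC359 library was far below the lowest vehicle library, and the raw counts of 634 and 659 with vehicle and 461 and 471 with EC359 show the depth behind these values. The means were 719 ± 20.3 and 424 ± 22.7 (SD, n = 2 each). The log2 fold change was -0.76 (standard error 0.076, 95% interval -0.93 to -0.59, adjusted p = 0.00112), a ratio of 0.589 with an interval from 0.524 to 0.662. The call held under all 10 other normalizations, tests, filters and designs fitted to the 4 libraries, with a highest adjusted p of 0.00214. It held without either vehicle library, and was lost without EC359 replicate 1 (-0.71, adjusted p = 0.275) and without EC359 replicate 2 (-0.82, adjusted p = 0.178), when 0 and 2 of all tested genes were called. None of the windows of the longest PFKFB4 transcript occur in transcripts of another gene. Over all exons of PFKFB4, 298 bases overlap UCN2 on the same strand.

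PFKFB3, the isoform with the strongest bias toward making fructose 2,6-bisphosphate, was also lower. PFKFB3 (plus strand, chr10:6186897-6296607) had 3422 and 3674 normalized counts with vehicle and 2952 and 3100 with EC359, without overlap. The means of 3548 ± 178 and 3026 ± 105 (SD, n = 2 each) differed by -14.7%. The log2 fold change was -0.23 (standard error 0.047, 95% interval -0.33 to -0.13), and the adjusted p of 0.0244 passed 0.05 but not 0.01. It was 0.403 without EC359 replicate 1, 0.307 without EC359 replicate 2 and 0.000931 without vehicle replicate 1.

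PFKFB2, the heart-type isoform, was the only one of the 10 genes with a higher mean after EC359. PFKFB2 (plus strand, chr1:207207711-207254369) had 162.3 and 159.1 normalized counts with vehicle and 185.7 and 221.3 with EC359. The EC359 libraries both exceeded the vehicle libraries, and they differed from each other by more than the vehicle libraries did. Its log2 fold change was 0.34 (standard error 0.13, 95% interval 0.049 to 0.63) with an adjusted p of 0.166, so the difference did not pass. YOD1 overlaps 315 bases of the PFKFB2 exons on the opposite strand.

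**Figure D3:**
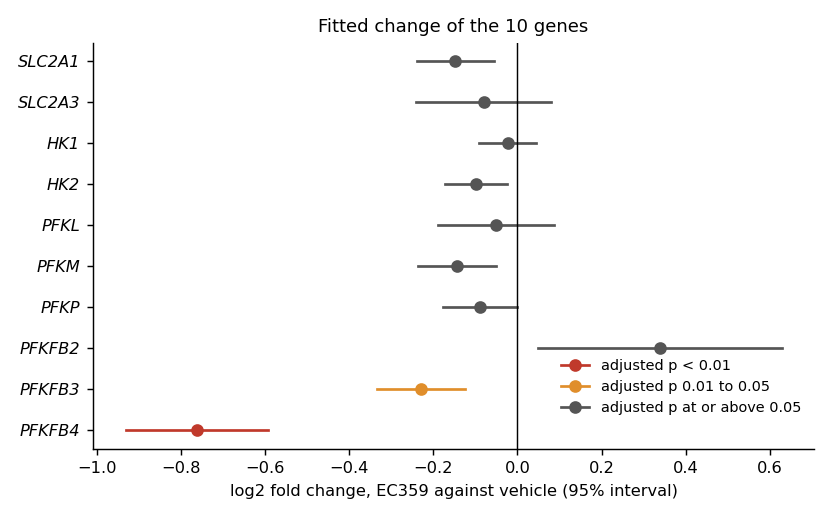
Fitted log2 fold change of each of the 10 genes, EC359 against vehicle, with its 95% interval as a bar and with color giving the adjusted p over all tested genes. PFKFB4 at -0.76 stands apart, PFKFB3 follows at -0.23, and the intervals of SLC2A3, HK1 and PFKL include 0.

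The make-up of each family was given as the share of each gene in the summed RPKM of its family. PFKFB4 made up 16.7% and 16.3% of the PFKFB sum in the vehicle libraries and 11.8% and 12% in the EC359 libraries. PFKFB3 made up 81% and 81.6% with vehicle and 85% and 84.4% with EC359, and PFKFB2 2.31% and 2.12% with vehicle and 3.21% and 3.62% with EC359. The share of PFKFB4 was thus lower and those of PFKFB3 and PFKFB2 were higher in both EC359 libraries, while the PFKFB sum had a mean of 25.3 RPKM with vehicle and 20.7 with EC359. When only the longest transcript gave the length, PFKFB4 made up 20.5% and 20.1% with vehicle and 14.7% and 14.9% with EC359. In raw counts the PFKFB4 share was 16.4% (exact 95% binomial interval 15.3% to 17.6%) and 16.1% (14.9% to 17.2%) with vehicle, and 11.5% (10.5% to 12.5%) and 11.7% (10.7% to 12.7%) with EC359. These intervals cover counting error only, and those of the treatments did not overlap.

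The log2 ratio of PFKFB4 to PFKFB3 was -2.28 and -2.32 with vehicle and -2.86 and -2.82 with EC359. This difference of -0.53 had an exact two-sided permutation p of 0.333, the smallest that 2 against 2 libraries can give, and 0.666 after adjustment over the 6 isoform pairs compared. In the other families the make-up moved by less. HK2 made up 48.8% and 48% of the hexokinase sum with vehicle and 47% and 47.2% with EC359. Its log2 ratio to HK1 differed by -0.076 (exact permutation p = 0.333). The size of the HK2 share depended on the gene model. When only the longest transcript gave the length, it was 36.8% and 36.1% with vehicle and 35.2% and 35.4% with EC359. PFKP made up from 67.8% to 68.6% of the PFK-1 sum and SLC2A1 from 93.7% to 94.2% of the transporter sum over the 4 libraries, and in both the treatments overlapped.

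**Figure D4:**
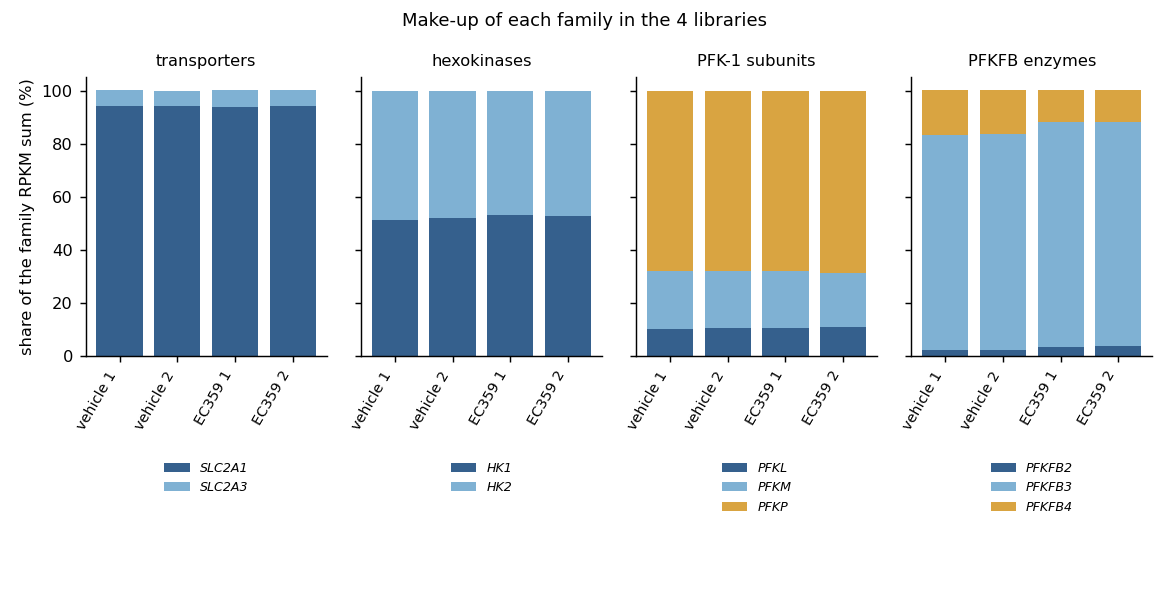
Share of each gene in the summed RPKM of its family (%), as stacked bars for each of the 4 libraries. In the PFKFB panel the PFKFB4 segment shrinks from 16.3% or more with vehicle to 12% or less with EC359, while the other panels differ little between libraries.

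Promoter sequences were examined because hypoxia-inducible factors bind elements with the core ACGTG or GCGTG, MYC and related factors bind the E-box CACGTG, and STAT factors bind TTCNNNGAA. The windows reach from 250 bases before to 50 bases after each RefSeq start. The RefSeq table is built on GRCh38.p14, and its sequences were placed on GRCh37 by exact match. It held 25 windows for 8 of the 10 genes, with no entry for SLC2A3 and PFKFB2. Motifs were searched on both strands, and the palindrome CACGTG gives an ACGTG match on each strand. The windows of the PFKFB genes with lower RNA levels and the HK2 window with the most matches are printed 5′ to 3′, with capitals marking every match to a hypoxia core or an E-box on either strand. A match on the other strand appears as its reverse complement.
PFKFB4, GRCh37 chr3:48594187-48594486, minus strand: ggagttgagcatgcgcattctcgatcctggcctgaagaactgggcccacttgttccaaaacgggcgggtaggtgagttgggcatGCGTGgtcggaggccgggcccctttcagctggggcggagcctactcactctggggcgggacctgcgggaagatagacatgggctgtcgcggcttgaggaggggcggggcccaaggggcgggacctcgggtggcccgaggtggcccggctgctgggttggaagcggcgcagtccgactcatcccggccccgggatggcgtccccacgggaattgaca
PFKFB3 first start, GRCh37 chr10:6186634-6186933, plus strand: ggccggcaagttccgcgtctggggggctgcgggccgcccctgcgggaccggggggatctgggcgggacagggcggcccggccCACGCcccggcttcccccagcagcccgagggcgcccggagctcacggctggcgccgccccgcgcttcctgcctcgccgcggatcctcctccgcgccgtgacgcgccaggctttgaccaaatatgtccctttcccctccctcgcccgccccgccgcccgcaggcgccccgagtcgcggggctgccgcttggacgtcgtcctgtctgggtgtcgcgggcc
PFKFB3 second start, GRCh37 chr10:6244645-6244944, plus strand: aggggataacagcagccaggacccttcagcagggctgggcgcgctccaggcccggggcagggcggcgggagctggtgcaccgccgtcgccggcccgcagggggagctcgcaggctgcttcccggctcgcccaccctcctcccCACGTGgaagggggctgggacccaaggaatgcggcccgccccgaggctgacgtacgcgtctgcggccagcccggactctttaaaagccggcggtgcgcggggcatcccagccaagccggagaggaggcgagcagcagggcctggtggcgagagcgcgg
HK2 second start, GRCh37 chr2:75062047-75062346, plus strand: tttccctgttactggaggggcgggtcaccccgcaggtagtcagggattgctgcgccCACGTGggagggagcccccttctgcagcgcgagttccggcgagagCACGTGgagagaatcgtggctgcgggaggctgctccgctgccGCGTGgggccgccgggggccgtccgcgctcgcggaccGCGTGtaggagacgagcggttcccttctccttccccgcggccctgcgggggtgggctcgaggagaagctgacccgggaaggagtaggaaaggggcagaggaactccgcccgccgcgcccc

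The PFKFB4 window held 1 GCGTG at position -166 from the start site. The first PFKFB3 window held 1 GCGTG on the minus strand at -168, and the second held a CACGTG at -108. The HK2 window held 4 ACGTG matches, of which all lay within 2 CACGTG palindromes at -194 and -149, and 2 GCGTG matches at -107 and -70. At least 6 core matches were found in 0.923% of all 35116 windows of this length. The HK2 window was picked for its matches from 25 windows, so this share does not measure how unusual it is. Over the 8 genes, 13 of 25 windows held ACGTG or GCGTG, against 48.4% of all windows. Each of the 8 genes had at least 1 such window, against 52.4% of all genes in the table. These 8 have from 1 to 7 windows each, whereas the table held 35116 windows for 27305 genes, so these shares per gene are not comparable. Windows of a gene can overlap, and PFKM windows 1 and 2 hold the same ACGTG. Single motifs occurred in 21.4% (ACGTG), 36.5% (GCGTG), 7.26% (CACGTG) and 7.66% (TTCNNNGAA) of all windows. TTCNNNGAA was found in 1 window, at an HK1 start. A match is a description of letters, and counts per gene do not show which start ES2 cells use.

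Genes around these steps were read from 4 lists chosen by name, with earlier results of these data known. Of 13 other glucose transporter genes 6 were tested, and 0 passed either threshold or an unadjusted p under 0.05 in edgeR's test. The unadjusted threshold was passed by 11.0% of all tested genes as lower and 10.7% as higher. The log2 fold changes of the 6 transporter genes ranged from -0.08 to 0.13. The lowest adjusted p values were those of SLC2A13 (0.13, adjusted p = 0.28), which encodes a myo-inositol transporter, and SLC2A6 (0.075, adjusted p = 0.827). Of a list of 6 further genes for glucose phosphorylation and PFKFB1, only HKDC1 and ADPGK were tested. HKDC1, which encodes a hexokinase-domain protein, had 164.5 and 191.4 normalized counts with vehicle and 246.8 and 268 with EC359. It was higher at the weaker threshold (log2 fold change 0.53, adjusted p = 0.0352). The fitted change of HK2 was negative but did not pass, and the interval of HK1 included 0. At a level of 1.49 RPKM with vehicle, HKDC1 was far below both. ADPGK, whose product phosphorylates glucose with ADP, was at -0.047 (adjusted p = 0.574). HK3 had 0 counts in all 4 libraries.

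Among 20 genes whose products act on the same metabolites, 15 were tested. At an adjusted p under 0.01, 2 of them fell, against 0.795% of all tested genes. GYS1, which encodes glycogen synthase, had a log2 fold change of -0.34 (adjusted p = 0.0055), and PGM1, which interconverts glucose 1-phosphate and glucose 6-phosphate, of -0.26 (adjusted p = 0.00735). GPI, which links the hexokinase and PFK-1 steps and was named after its values were seen, was at -0.20 (adjusted p = 0.0101). The median of the list was -0.059. TIGAR, listed as C12orf5 and known as a fructose bisphosphatase that opposes the PFKFB kinases, had 813.6 and 774.4 normalized counts with vehicle and 823.4 and 763.8 with EC359 (adjusted p = 0.999).

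Of 14 genes for the steps after PFK-1, 12 were tested. At an adjusted p under 0.01 in edgeR's test, 7 fell and 0 rose, against 0.795% and 0.299% of all tested genes. At an unadjusted p under 0.05, 0 were higher, against 10.7% of all tested genes. The 7 were PGK1 and LDHA (both -0.41), ALDOA, TPI1 (both -0.27), ENO1, PKM2 (both -0.26, the latter an older symbol for the whole PKM gene, not a splice isoform) and GAPDH (-0.20). At an adjusted p under 0.05, 9 were lower, with ALDOC and ENO2 added, against 2.64% of all tested genes. The median log2 fold change was -0.26 in this list and -0.095 over the 10 genes for glucose entry and PFK-1 control. The difference between the lists was not tested.

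**Figure D5:**
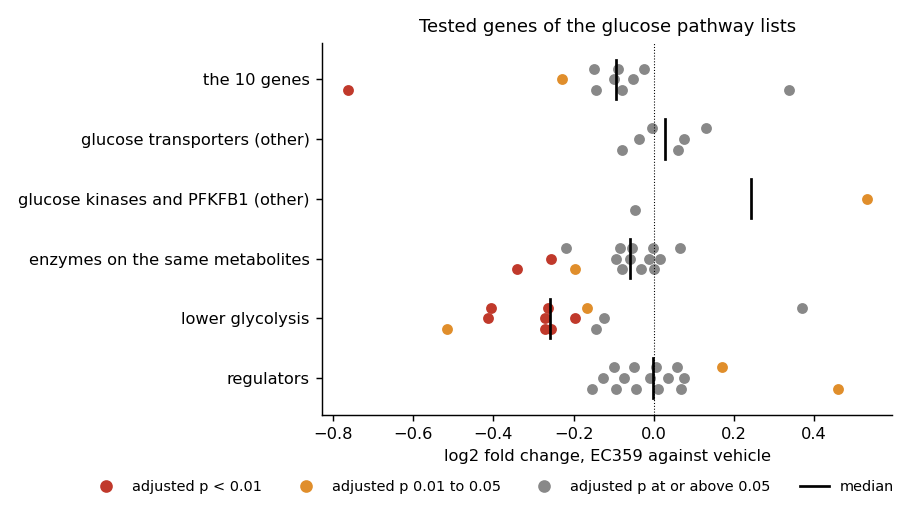
Log2 fold change, EC359 against vehicle, of each tested gene in the 10-gene set and in 5 lists around it, with color for the adjusted p and a black line at each list's median (points are spread vertically for legibility). The medians are -0.095 for the 10 genes, -0.26 for lower glycolysis and between -0.059 and 0.24 for the other lists.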

How the data were processed

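RNA was measured in 4 libraries, 2 for each treatment, grouped by the sample titles. The authors prepared libraries with a stranded mRNA kit, sequenced single-end reads of 50 bases, aligned them to UCSC hg19 (the assembly GRCh37) with TopHat2 2.0.8b and counted reads per RefSeq gene with HTSeq, and deposited the raw count of each gene symbol. The HTSeq version and strand setting are not given in the sources used here. Rows that name no gene were left out of library sizes and tests. Of the reads with a single alignment, 10.9% to 12% lay on no gene and 0.852% to 0.879% were ambiguous.

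Genes were filtered with filterByExpr (minimum count 10, minimum total 15), scaled by TMM and compared by the quasi-likelihood test of edgeR 4.0.16 under R 4.3.3 with treatment as the only term. Benjamini-Hochberg adjustment ran over 12706 genes. A call required an adjusted p under 0.01, and 0.05 is given beside it. RPKM used union exon lengths of GENCODE on GRCh37, which matched 90.7% of symbols and 95.2% of tested genes. Scripts were tested on simulated data. Alternatives were other scalings, filters and thresholds, DESeq2 1.42.0, limma 3.58.1 voom, a replicate block, removal of length and GC trends, and leaving out each library. All 10 genes are named. From each list, genes called at 0.01 and the 2 with the lowest adjusted p are named, and GPI, TIGAR, HIF1A, MYC, HK3, ALDOC and ENO2 were added after their values were seen. The genes and lists were chosen with earlier results of these data known. Of the listed genes and markers, some are not reported here.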

Additional observations from a re-analysis of the deposited data

How the results depend on the processing

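PFKFB4 kept its direction under every alternative run, with log2 fold changes from -0.82 to -0.71. The number of the 10 genes called was 1, and it was 2 with DESeq2 (PFKFB3 and PFKFB4), 3 with length and GC trends removed (SLC2A1 added), 2 at an adjusted p under 0.05, 4 at an unadjusted p under 0.01, and 0 to 3 when 1 library was left out. The number of all tested genes called was 139 (101 lower, 38 higher). It was 230 with DESeq2, 61 without a filter, 995 with the trends removed (589 lower, 406 higher), 549 at an adjusted p under 0.05, 1255 at an unadjusted p under 0.01, and 0 to 539 when 1 library was left out (390 without vehicle replicate 1, 539 without vehicle replicate 2, 0 without EC359 replicate 1, 2 without EC359 replicate 2). With total counts only it was 120, of which 68 were lower and 52 higher. With a replicate block 6 of the 10 genes (SLC2A1, HK2, PFKM, PFKP, PFKFB3 and PFKFB4) and 1539 of all genes were called, and with the block and the trends removed 7 (PFKL added) and 1934. The labels do not say that a replicate number marks a shared batch, so the numbers were not taken as pairs. The same-numbered libraries had deviations that correlated at 0.0987, and 2 pairs cannot settle whether the libraries were paired. The median log2 fold change of the 10 genes lay between -0.13 (without vehicle replicate 1) and -0.088 (without vehicle replicate 2) when 1 library was left out. The log2 fold change of HK1 was 0.00082 with total counts only, and that of PFKL ranged from -0.12 to 0.020 when 1 library was left out (0.020 without vehicle replicate 2, 0.018 without EC359 replicate 1) and was -0.14 (adjusted p = 0.011) with the trends removed. The cause of the lost and gained calls was not tested. With 1 library left in a treatment, that library is assumed to vary like the other treatment. Depth limits PFKFB2 most, with 143 to 237 counts per library.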

Other observations

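Regulators of glucose entry and of these enzymes were read as a further list of 17 genes, of which 16 were tested. None passed an adjusted p under 0.01 in edgeR's quasi-likelihood test, an unadjusted p under 0.05 was reached by 1 gene that was lower and 3 that were higher (against 11.0% and 10.7% of all tested genes), and their median log2 fold change was -0.0017. EPAS1, which encodes HIF-2α, had 304.5 and 270.4 normalized counts with vehicle and 391.8 and 398.7 with EC359 (log2 fold change 0.46, adjusted p = 0.0244). TXNIP, which encodes a protein that promotes removal of GLUT1 from the cell surface, had 2454 and 2461 with vehicle and 2768 in both EC359 libraries (0.17, adjusted p = 0.046). Both were higher at the weaker threshold, without overlap between treatments. HIF1A, which encodes HIF-1α, had a log2 fold change of 0.076 (adjusted p = 0.164), and MYC had 0.0063 (adjusted p = 0.949).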
